A study of Mus musculus with 46 samples.

Results

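The 10 genes described here encode the glucose transporter GLUT1 (Slc2a1), 8 proteins that drive or regulate the breakdown of glucose to pyruvate (Hk2, Hk3, Pfkfb3, Pfkp, Aldoa, Gapdh, Pgk1 and Eno1) and lactate dehydrogenase A (Ldha). They were taken by gene symbol from 4 tables of RNA-seq values of mouse microglia, and each of the 10 had a row in every table, among 24824 gene symbols in all. All 10 passed the filter on low values in each of the 15 comparisons made, Pfkp and Pgk1 in part on very few reads. The study asked how loss of Dicer, the enzyme that cuts microRNA precursors to mature microRNAs, changes microglia of the developing and the adult brain, and how adult microglia without Dicer respond to bacterial lipopolysaccharide (LPS).

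Glucose enters microglia through GLUT1 and is trapped by hexokinases as glucose-6-phosphate. Phosphofructokinase, of which Pfkp is 1 isoform, sets the pace of the pathway and is switched on by fructose-2,6-bisphosphate, the product of Pfkfb3. Aldolase, Gapdh, Pgk1 and enolase carry the sugar on towards pyruvate, and lactate dehydrogenase A turns pyruvate into lactate while it restores the NAD+ that Gapdh needs. Macrophages given LPS are known to raise glucose uptake and lactate output, and hypoxia-inducible factor is a known activator of many of these genes.

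The 46 libraries fell into 14 groups, taken from the sample labels; the series text differs in giving the same genotype for both groups of the first table and 3 samples for the Dicer-deficient total brain group after LPS. In the first table, 3 Dicer-deficient samples (Cx3cr1CreER:Dicerfl/-) were set against 4 controls (Cx3cr1CreER:Dicer+/-), all untreated adults of 10 to 12 weeks. The total brain table held microglia of 10- to 12-week-old mice of the same genotypes, 6 h after 1 mg/kg LPS given intraperitoneally (4 Dicer-deficient, 4 control) or at steady state (3 Dicer-deficient, 3 control; their labels also name PBS). The hippocampus table had the same layout with 2 Dicer-deficient and 2 control samples after LPS and 3 Dicer-deficient and 2 control samples at steady state. The development table held Dicerfl/fl controls of 3 stages, 4 embryonic samples of day 14 (E14), 5 newborn samples (P0) and 5 adult samples of 6 to 8 weeks, and 2 newborn Cx3cr1Cre:Dicerfl/fl mutants, compared with the P0 controls numbered 1 to 3. The adult controls thus also carried CreER and 1 Dicer allele that was not intact, and Cx3cr1 drives recombination in other brain macrophages and in monocytes as well as in microglia. Microglia were sorted as CD45intCD11b+F4/80+Ly6C-Ly6G- cells, except at E14, where the gate was CD45+CD11b+F4/80hiLy6C-Ly6G-, so that stage and gate cannot be told apart there. No label says whether the samples of a group came from separate litters or sorts, so the spread between them may be partly technical.

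The deposited values were whole reads times 1 factor per library, and the recovered libraries held 898451 to 4573063 reads. P2ry12, a defining microglial marker, had group medians of 20576 and 22344 in the first table, and of 960 to 10957 in the others, lowest after LPS. S100a8, a neutrophil gene, was at 0 in all 7 libraries of the first table, but read 1533 to 2065 in the 3 steady-state Dicer-deficient hippocampal samples. S100a9, another neutrophil gene, reached 64.9 in Dicer-deficient samples and 24.7 in controls of the first table. Summed neutrophil markers there reached 254.9 in Dicer-deficient samples and 158.4 in controls. Dicer1 did not separate the genotypes, with 117 to 151 in adult Dicer-deficient microglia against 97.6 to 153 in controls, and capture with oligo dT reads transcript ends and need not report a deleted exon. One total brain LPS control, number 33, stood apart, with P2ry12 at 6074 against 974 to 1476 in the other 3 LPS controls, and member results whose call or size it changed by much are given with and without it. The control values of other genes, and the medians over a list, include it. Cx3cr1, the gene that carries the recombinase, was at 688 and 7139 in the 2 steady-state hippocampal controls, at 490 to 8687 in the development adults and at 647 and 3129 in the 2 newborn mutants. Samples are named by the number in their label.

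Promoters of 4 of the genes are shown because Slc2a1, Pfkfb3 and Ldha moved together after LPS while Hk3 moved the other way. They are RefSeq sequences on GRCm38.p6, 5′ to 3′ on the gene's strand, from up to 250 bases before the start to the base before the first annotated exon. Capitals mark the core that hypoxia-inducible factor binds, searched as ACGTG or GCGTG on both strands, which overlaps the E-box CACGTG.
Slc2a1, chr4:119108495-119108710, plus strand: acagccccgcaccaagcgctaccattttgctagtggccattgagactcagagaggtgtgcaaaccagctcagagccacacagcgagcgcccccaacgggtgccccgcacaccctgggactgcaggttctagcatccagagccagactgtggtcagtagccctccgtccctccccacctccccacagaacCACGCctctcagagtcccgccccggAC
Pfkfb3, chr2:11502102-11502340, minus strand, second listed start: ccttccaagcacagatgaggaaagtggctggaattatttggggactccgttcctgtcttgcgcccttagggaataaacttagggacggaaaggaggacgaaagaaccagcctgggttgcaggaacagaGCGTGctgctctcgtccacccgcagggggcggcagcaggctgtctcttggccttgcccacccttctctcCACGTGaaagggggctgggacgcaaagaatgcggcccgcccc
Ldha, chr7:46845554-46845803, plus strand: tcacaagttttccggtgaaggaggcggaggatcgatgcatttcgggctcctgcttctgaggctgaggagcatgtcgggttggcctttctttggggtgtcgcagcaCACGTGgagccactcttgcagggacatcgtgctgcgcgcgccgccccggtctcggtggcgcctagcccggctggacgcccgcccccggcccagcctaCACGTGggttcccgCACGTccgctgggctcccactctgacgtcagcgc
Hk3, chr13:55021386-55021635, minus strand: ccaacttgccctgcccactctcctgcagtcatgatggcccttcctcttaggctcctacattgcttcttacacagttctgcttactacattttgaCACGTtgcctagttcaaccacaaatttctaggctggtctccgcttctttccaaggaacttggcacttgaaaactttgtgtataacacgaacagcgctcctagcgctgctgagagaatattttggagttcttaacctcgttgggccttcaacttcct
The Slc2a1 stretch of 216 bases held 1 whole match and the first letters of a second, the Pfkfb3 stretch of 239 bases 3, the Ldha stretch of 250 bases 5 and the Hk3 stretch of 250 bases 1. For Pfkfb3 the second listed start was shown because most GENCODE transcripts begin there, and 1 match stood before its first. The second listed start of Ldha, not shown, also had 1. The core was present before the first listed start of 9 of the 10 genes and before some listed start of all 10, while 38.6% of all 32851 promoter windows of 250 bases held it. CACGTG stood before the first listed start of 1 of the 10, Ldha, and of 6.05% of 27025 genes, and Pfkfb3 had it before its second listed start. A match describes the letters only, and Hk3, which fell after LPS, also has one.

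In total brain microglia, LPS was followed by higher Slc2a1, Pfkfb3 and Ldha in both genotypes and by lower Hk3, the hexokinase isoform typical of myeloid cells. Slc2a1 was 11.6-fold higher in Dicer-deficient microglia after LPS and 3.99-fold higher in controls, and Pfkfb3 13.8-fold and 4.22-fold. Ldha rose by about the same factor in both genotypes, 3.16-fold in Dicer-deficient microglia and 3.21-fold in controls. In Dicer-deficient microglia 5 of the 10 genes were called higher and 1 lower, where 12.2% of 13423 genes were called higher and 12.8% lower (24.9% either way). In controls 3 were called higher and 1 lower, where 7.05% of the genes were called higher and 7.08% lower (14.1% either way). Without control 33, 4 members were called higher, Aldoa added, and 1 lower, and of 13288 genes 1635 were called higher and 1753 lower, where 946 and 951 were with it. Leaving out any other 1 of the 7 control libraries gave 480 to 680 genes higher and 362 to 658 lower. A gene was called at an adjusted p under 0.05 from limma on log2(value + 1), with Benjamini-Hochberg adjustment over all genes tested, and fold changes are on that scale. The median of the 10 log2 changes was 1.31 in Dicer-deficient microglia and 0.79 in controls, beside -0.04 and -0.05 over all genes tested.

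Slc2a1 read 1678, 1586, 1730.1 and 1304 in the 4 Dicer-deficient LPS samples, against 119, 184 and 110.4 in the 3 Dicer-deficient samples at steady state. In controls it read 694, 601, 789 and 163 after LPS, the last in control 33, against 107, 109 and 148 at steady state. In either genotype every LPS sample lay above every steady-state sample, narrowly so for control 33; over all genes tested in controls, 9.94% lay higher and 11.3% lower without overlap. The log2 change was 3.54 ± 0.38 (SE, limma adjusted p = 9.66e-06) in Dicer-deficient microglia and 2.00 ± 0.38 (limma adjusted p = 0.00406) in controls, and 2.51 ± 0.20 (limma adjusted p = 1.03e-07) in controls without 33.

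Pfkfb3 makes the small sugar that activates phosphofructokinase. It read 1306, 2298, 1841 and 1547 in Dicer-deficient microglia after LPS and 116, 157 and 102 at steady state. Control values were 1278, 2009.8, 1608 and 362 after LPS, the last again in control 33, and 236, 304 and 248 at steady state. The LPS and steady-state samples of each genotype did not overlap, and all 3 Dicer-deficient steady-state samples lay under every steady-state control. Over all genes tested, 16% lay higher and 16.4% lower with LPS without overlap in Dicer-deficient microglia, and 13.7% lay lower between genotypes at steady state (22.8% either way). The log2 change was 3.79 ± 0.40 (limma adjusted p = 7.98e-06) in Dicer-deficient microglia and 2.08 ± 0.40 (limma adjusted p = 0.00418) in controls, or 2.61 ± 0.22 in controls without 33.

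Ldha, which makes lactate, read 1313, 1182, 1413 and 964 in Dicer-deficient LPS samples, against 342, 526 and 308 at steady state. In controls it read 1335, 1584, 1887 and 578 after LPS, against 338, 431 and 387 at steady state. Both genotypes reached a like level, and no LPS sample came as low as a steady-state sample of its genotype. That held for 16% of all genes tested in Dicer-deficient microglia and 9.94% in controls. The log2 change was 1.66 ± 0.31 (limma adjusted p = 0.000737) in Dicer-deficient microglia and 1.68 ± 0.31 (limma adjusted p = 0.00341) in controls, or 2.05 ± 0.21 in controls without 33.

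Hk3 went the other way. It read 57.4, 78.0, 93.4 and 119 in Dicer-deficient LPS samples, against 241, 159.5 and 191 at steady state. In controls it read 142, 119, 196 and 436 after LPS, against 451, 532 and 501 at steady state. All LPS samples lay under the steady-state samples of their genotype, control 33 just under them. The same held for 16.4% of all genes tested in Dicer-deficient microglia and 11.3% in controls. The log2 change was -1.20 ± 0.34 (limma adjusted p = 0.0145) in Dicer-deficient microglia and -1.33 ± 0.34 (limma adjusted p = 0.0156) in controls. The call in Dicer-deficient microglia was lost without steady-state sample 5 (limma adjusted p = 0.0743). The call in controls was lost without LPS control 31, steady-state control 8 or steady-state control 9 (limma adjusted p = 0.0593, 0.0595 and 0.0566), while without 33 the change was -1.72 ± 0.25 (limma adjusted p = 5.31e-05).

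**Figure D1:**
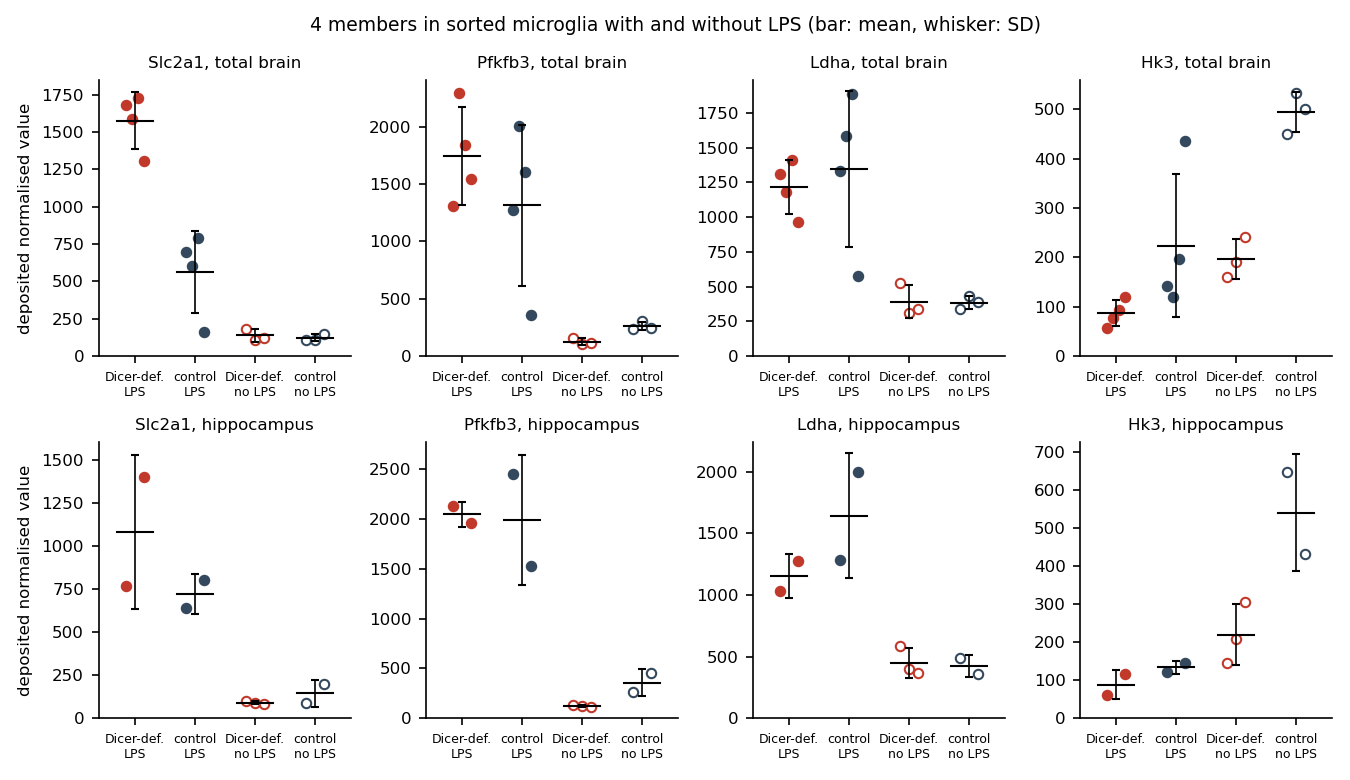
Deposited normalised value (linear axis from 0) of Slc2a1, Pfkfb3, Ldha and Hk3 in each sample of total brain (top) and hippocampus (bottom); points are samples, horizontal bars group means and whiskers SD, red Dicer-deficient, blue control, filled after LPS and open at steady state. The 4 Dicer-deficient total brain LPS samples sit at 1304 to 1730.1 for Slc2a1, above the LPS controls at 163 to 789, while Hk3 is lower after LPS and lower in Dicer-deficient samples.

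The other members moved less or rested on few reads. Hk2, an inducible hexokinase, averaged 746 ± 83.6 in Dicer-deficient LPS samples (SD, n = 4) and 475 ± 58.9 at steady state (n = 3), a log2 change of 0.65 ± 0.20 (limma adjusted p = 0.0234). That call was lost without LPS sample 35 or 37 or steady-state sample 5 or 12 (limma adjusted p = 0.0517, 0.0588, 0.0935 and 0.0808). In controls Hk2 changed by 0.52 ± 0.20 (limma adjusted p = 0.0940), or by 0.52 ± 0.20 without 33 (limma adjusted p = 0.0708), and was called without LPS control 17 (0.70 ± 0.18, limma adjusted p = 0.0221). Aldoa, the aldolase, was not called in either genotype, at 0.37 ± 0.24 in Dicer-deficient microglia and 0.68 ± 0.24 in controls, but was called in controls without 33 (0.85 ± 0.22, limma adjusted p = 0.00699). Gapdh, which oxidises the triose phosphate, was called in Dicer-deficient microglia at 1.51 ± 0.43 (limma adjusted p = 0.0152), with values of 9.3 to 15.3 after LPS and 1.9 to 5.8 at steady state; without steady-state sample 12 the call was lost (limma adjusted p = 0.0819). Pgk1, which makes the first ATP of the pathway, Pfkp and Eno1 passed the test in neither genotype. Pgk1 changed by 1.71 ± 0.66 in Dicer-deficient microglia (limma adjusted p = 0.0651), and was called with a pseudocount of 5, with only the groups compared and by DESeq2 (adjusted p = 0.0419, 0.0256 and 0.0477). Eno1 read 33.4 to 39.8 in Dicer-deficient LPS samples and 16.9 to 40 at steady state, so that its groups overlapped.

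Other markers moved with LPS in the same libraries, and their part in these changes was not tested; in bulk samples, fewer cells of a type and less RNA per cell cannot be told apart. Summed neutrophil markers (10 genes) read 458.5 to 3380 in Dicer-deficient LPS samples, 124 to 3625 in LPS controls, 5.9 to 340.1 in Dicer-deficient steady-state samples and 7.5 to 11.7 in steady-state controls. Of the 9 neutrophil markers tested, 7 rose with LPS in Dicer-deficient microglia and 5 in controls. Summed monocyte markers (7 genes in the table) read 434 to 649.9 in Dicer-deficient LPS samples, 52.5 to 82.3 in LPS controls, and at most 39 at steady state in either genotype, although the sort was for Ly6C- and Ly6G- cells. Of 10 microglial markers, 7 fell with LPS in Dicer-deficient microglia and 6 in controls. Immediate early sums were 14312 to 18407 in Dicer-deficient LPS samples, against 4981 to 7738 at steady state, and 12778.5 to 21572 in LPS controls, against 9244 to 16843 at steady state, where they overlapped. Erythroid sums were 2957 to 6963 in Dicer-deficient LPS samples, against 83.6 to 451 at steady state, and 300.3 to 12707 in LPS controls, against 395 to 2388 at steady state. Astrocyte sums were 1095 to 2036 in Dicer-deficient LPS samples, against 392.1 to 801.5 at steady state, and overlapped in controls.

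In hippocampal microglia the same 3 genes rose after LPS in both genotypes and Hk3 was lower. Slc2a1 was 11.2-fold higher in Dicer-deficient samples and 5.29-fold higher in controls, and Pfkfb3 16.4-fold and 5.62-fold. In Dicer-deficient microglia 3 of the 10 genes were called higher and 0 lower, against 3.87% and 4.61% of 12366 genes (8.47% either way); in controls 3 were called higher and 1 lower, against 2.35% and 2.89% (5.23% either way). The median of the 10 log2 changes was 0.57 in Dicer-deficient microglia and 1.66 in controls, beside 0.05 and 0 over all genes tested. The control median lay between Pfkp and Gapdh, both on few reads. Pfkp read 26.1 and 2.54 in LPS controls, 8.91 and 0 in steady-state controls and 0 in every Dicer-deficient library. Gapdh had 5 to 53 reads in the control libraries. The 2 medians are therefore a weak measure of any difference between genotypes. Groups held 2 or 3 samples.

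Slc2a1 read 769 and 1401 in the Dicer-deficient LPS samples, against 103, 90.9 and 81.8 at steady state, and 643 and 807 in LPS controls, against 90.5 and 202 at steady state. Pfkfb3 read 2134 and 1957 in Dicer-deficient LPS samples, against 130.0, 126 and 114 at steady state, and 2450.4 and 1528 in LPS controls, against 261 and 451 at steady state. For both genes the LPS samples of each genotype lay above its steady-state samples, and for Pfkfb3 the 3 Dicer-deficient steady-state samples lay under both controls. With so few samples that is common: 18.3% of all genes tested lay higher and 17.1% lower with LPS without overlap in Dicer-deficient microglia, and 24.7% and 23.9% in controls. Between genotypes at steady state, 13.7% of the genes lay lower without overlap in Dicer-deficient samples. The log2 change of Slc2a1 was 3.49 ± 0.38 (limma adjusted p = 0.000176) in Dicer-deficient microglia and 2.40 ± 0.41 (limma adjusted p = 0.00549) in controls. That of Pfkfb3 was 4.04 ± 0.29 (limma adjusted p = 1.33e-05) in Dicer-deficient microglia and 2.49 ± 0.31 (limma adjusted p = 0.00074) in controls. The Slc2a1 call in controls was lost without LPS control 16 or steady-state control 1 (limma adjusted p = 0.0652 and 0.0512).

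Ldha read 1030.0 and 1278 in hippocampal Dicer-deficient LPS samples, against 588, 399 and 365 at steady state, and 1285 and 2001 in LPS controls, against 489.5 and 360.0 at steady state. The LPS samples again lay above the steady-state ones, as did the 18.3% and 24.7% of genes given above. Its log2 change was 1.38 ± 0.28 (limma adjusted p = 0.0105) in Dicer-deficient microglia, lost without LPS sample 18 or 20 (limma adjusted p = 0.0515 and 0.102). In controls it was 1.93 ± 0.31 (limma adjusted p = 0.00355), lost without LPS control 16 or steady-state control 2 (limma adjusted p = 0.0512 and 0.0630). Hk3 read 61.1 and 116 in Dicer-deficient LPS samples, against 146, 208 and 307 at steady state, and 122 and 146 in LPS controls, against 649 and 431 at steady state. Each LPS sample was under every steady-state sample of its genotype, as for the 17.1% and 23.9% of genes given above. The log2 change of Hk3 was -1.31 ± 0.40 (limma adjusted p = 0.0694) in Dicer-deficient microglia, called without steady-state sample 4 (-1.58 ± 0.41, limma adjusted p = 0.0399). In controls it was -1.98 ± 0.44 (limma adjusted p = 0.0226), and leaving out any 1 of the 4 libraries, LPS control 15 or 16 or steady-state control 1 or 2, ended that call (limma adjusted p = 0.0874 to 0.168). Without LPS control 16 only Pfkfb3 of the 10 genes remained called in controls.

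Markers of other kinds moved with LPS in the hippocampal libraries too, and their part in the changes of the members was not tested. Summed immediate early genes read 24241 and 25988 in Dicer-deficient LPS samples, against 7227 to 7831 at steady state, and 20927 and 23648 in LPS controls, against 6755 and 10764 at steady state. Summed microglial markers read 41957 and 41988 in Dicer-deficient LPS samples, against 74950 to 81800 at steady state, and 41410 and 50869 in LPS controls, against 81435 and 86521 at steady state. Border macrophage markers read 1.39 and 20.2 in Dicer-deficient LPS samples, against 306 to 450.5 at steady state, and 6.53 and 35.5 in LPS controls, against 295 and 477 at steady state. These 3 sums did not overlap between LPS and steady state in either genotype. Monocyte sums were 283 and 642 in Dicer-deficient LPS samples, against 182 to 288 at steady state, and 37.5 and 45.1 in LPS controls, against 45.4 and 126 at steady state. Neutrophil sums were 141 and 296 in Dicer-deficient LPS samples, against 7112 to 7295 at steady state, and 34.3 and 1209 in LPS controls, against 405 and 2415 at steady state. Astrocyte sums were 1215 and 1567 in Dicer-deficient LPS samples, against 519 to 736 at steady state.

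Over the 4 LPS comparisons, Slc2a1, Pfkfb3 and Ldha were each called higher in 4 of 4, where 1.29% of 12206 genes tested in all 4 were. The regions and genotypes had separate libraries throughout, but the labels do not say whether 1 mouse gave both regions. A steady-state Dicer-deficient sample numbered 5 is found in each region. Hk3 was lower in 4 of 4 and called in 3, and Hk2, Aldoa, Gapdh and Pgk1 were higher in 4 of 4 by estimates of which 2 passed the test, Hk2 and Gapdh in Dicer-deficient total brain microglia. Of all genes tested, 23% had a higher estimate in all 4 comparisons.

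**Figure D2:**
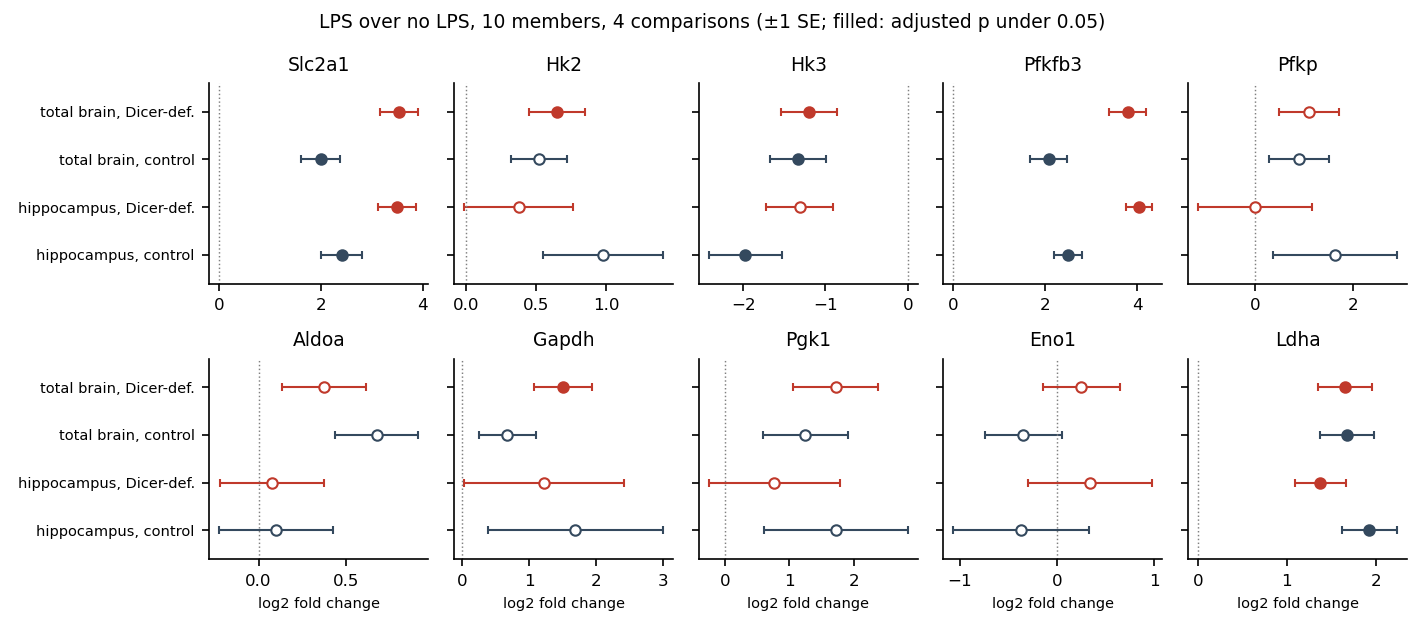
Log2 fold change of LPS over steady state (x axis, own scale per gene, dotted line at 0) of the 10 genes in 4 comparisons; points are limma estimates on log2(value + 1), whiskers 1 SE, red Dicer-deficient, blue control, filled where the adjusted p is under 0.05. Slc2a1, Pfkfb3 and Ldha are filled and right of 0 in all 4 comparisons, and Hk3 lies left of 0 in all 4.

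In microglia of untreated adults, Dicer deficiency went with lower Hk3, Pfkfb3 and Eno1, while glucose transporter and lactate dehydrogenase values overlapped between genotypes. Hk3 was 3.18-fold lower, Pfkfb3 2.00-fold lower and Eno1 1.90-fold lower. Of the 10 genes 0 were called higher and 3 lower, against 3.15% and 2% of 11045 genes (5.15% either way). The median log2 change of the 10 was -0.35, beside 0.05 over all genes tested.

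Hk3 read 137, 228 and 190.0 in Dicer-deficient samples, against 737, 538, 451 and 621 in controls. Pfkfb3 read 272, 309 and 348 in Dicer-deficient samples, against 708, 674, 564 and 539 in controls. Eno1, an enolase, read 428, 339.8 and 259.6 in Dicer-deficient samples, against 733, 570.2, 649.8 and 606 in controls. For all 3 genes every Dicer-deficient sample lay under every control, by a wide gap for Hk3; over all genes tested, 6.68% lay lower and 9.79% higher without overlap. The log2 changes were -1.67 ± 0.22 for Hk3 (limma adjusted p = 0.000248), -1 ± 0.18 for Pfkfb3 (limma adjusted p = 0.00305) and -0.92 ± 0.19 for Eno1 (limma adjusted p = 0.00884). Much of the Eno1 transcript is shared with a near-identical gene, as given further on.

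Slc2a1 averaged 398 ± 80.4 in adult Dicer-deficient microglia (SD, n = 3) and 310.3 ± 52.8 in controls (n = 4), a log2 change of 0.35 ± 0.21 that did not pass the test (limma adjusted p = 0.405). Ldha averaged 1085 ± 117 in Dicer-deficient microglia and 1213 ± 172 in controls, a log2 change of -0.16 with a normal-theory interval from -0.46 to 0.15. Hk2 read 425, 745 and 218 in Dicer-deficient samples and 519.7, 917, 585 and 842 in controls, with wide spread in both groups; the log2 change of -0.76 ± 0.31 became a call without Dicer-deficient sample 2 (-1.19 ± 0.26, limma adjusted p = 0.00654). Aldoa averaged 1524 ± 312 in Dicer-deficient microglia and 1057 ± 250 in controls, a log2 change of 0.54 ± 0.19 that was called without Dicer-deficient sample 3 (0.70 ± 0.19, limma adjusted p = 0.0447). Pfkp, Gapdh and Pgk1 overlapped between the genotypes. Among 15 immediate early genes, which rise during tissue dissociation, 10 were lower in Dicer-deficient microglia, with sums of 28824 to 34009 against 48071 to 69413 in controls, and their part in the lower Hk3, Pfkfb3 and Eno1 was not tested. Astrocyte sums, at 614 to 1127 in Dicer-deficient samples and 1401 to 1563 in controls, and endothelial sums, at 84.9 to 139 in Dicer-deficient samples and 163 to 223 in controls, did not overlap either, and their part was not tested.

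**Figure D3:**
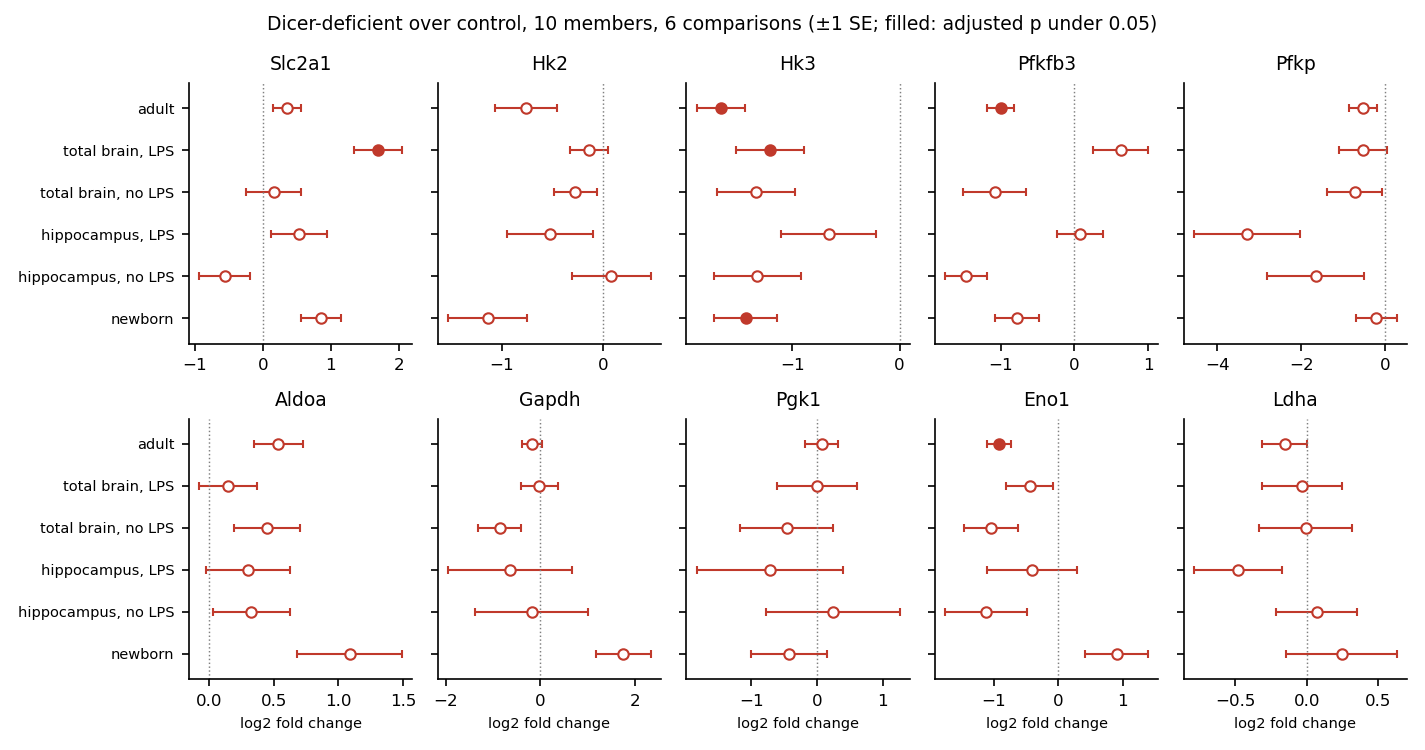
Log2 fold change of Dicer-deficient over control (x axis, dotted line at 0) of the 10 genes in the 6 genotype comparisons; points are limma estimates on log2(value + 1), whiskers 1 SE, filled where the adjusted p is under 0.05. Hk3 lies left of 0 in all 6 comparisons, from -1.67 in untreated adults to -0.66 in hippocampus after LPS.

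At steady state in total brain, 0 of the 10 genes were called between genotypes by limma or by edgeR with TMM or RLE scaling, 1 was by DESeq2 and 3 had an unadjusted p under 0.05, against 2.18% of 13423 genes called by limma. The 3 were those of the untreated adults. Hk3 averaged 197 ± 41.1 in Dicer-deficient microglia and 495 ± 41.0 in controls (SD, n = 3 each), a log2 change of -1.34 ± 0.36 (limma adjusted p = 0.0629; DESeq2 adjusted p = 0.0332). Pfkfb3 averaged 125 ± 28.9 in Dicer-deficient microglia and 263 ± 35.9 in controls, a log2 change of -1.08 ± 0.43 (limma adjusted p = 0.216). Eno1 changed by -1.05 ± 0.42 (limma adjusted p = 0.229), with 39.5, 16.9 and 40 in Dicer-deficient samples and 34.0, 87.5 and 83.9 in controls, which overlapped. Fitted on these 6 libraries alone, Hk3 and Pfkfb3 were called (limma adjusted p = 0.00428 and 0.0197). Immediate early sums, 4981 to 7738 in Dicer-deficient samples and 9244 to 16843 in controls, did not overlap either, and their part was not tested.

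After LPS in total brain, Slc2a1 was higher in Dicer-deficient microglia than in controls and Hk3 was lower, and no other member passed the test. This made 1 call higher and 1 lower among the 10 genes, against 3.93% and 5.46% of 12937 genes (9.4% either way). Slc2a1 averaged 1575 ± 189.7 in Dicer-deficient microglia and 562 ± 277 in controls (SD, n = 4 each), 3.24-fold higher (log2 1.70 ± 0.35, limma adjusted p = 0.00649). The 4 Dicer-deficient samples, at 1304 to 1730.1, all lay above the highest control at 789, where 6.25% of all genes lay higher and 8.71% lower without overlap (15% either way). Without control 33 the controls averaged 695 ± 94.2 (n = 3) and the change was 2.26-fold (log2 1.18 ± 0.19, limma adjusted p = 0.000861). Hk3 averaged 87.0 ± 26.0 in Dicer-deficient microglia and 223 ± 145 in controls (log2 -1.21 ± 0.31, limma adjusted p = 0.0225). The highest Dicer-deficient sample, at 119.2, and the lowest control, at 119.3, nearly met. Without control 33 the Hk3 change was -0.82 ± 0.23 (limma adjusted p = 0.0323), and without Dicer-deficient sample 35 or 36 the call was lost (limma adjusted p = 0.0708 and 0.0600). Fitted on these 8 libraries alone it was lost too (limma adjusted p = 0.0672).

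Pfkfb3 and Ldha did not separate the genotypes after LPS. Pfkfb3 changed by 0.63 ± 0.37 (limma adjusted p = 0.327), and by 0.09 ± 0.21 without control 33. Ldha changed by -0.03 ± 0.28, and by -0.40 ± 0.19 without control 33. Beside the higher Slc2a1, 5 of 7 monocyte markers were higher in Dicer-deficient microglia after LPS, and the monocyte sums of 434 to 649.9 in Dicer-deficient samples against 52.5 to 82.3 in controls did not overlap. Astrocyte sums, 1095 to 2036 in Dicer-deficient samples and 593 to 859 in controls, did not overlap either. The neutrophil sums given above did overlap, although the neutrophil receptor Cxcr2 differed by 4.33 ± 0.48 (limma adjusted p = 3.17e-05), and the part of these cell types was not tested.

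In hippocampus, 0 of the 10 genes were called between genotypes by limma in either condition, against 0.17% of 12366 genes at steady state and 0.307% after LPS. At steady state 2 had an unadjusted p under 0.05, and edgeR with TMM, edgeR with RLE and DESeq2 each called 1, Pfkfb3. After LPS 1 had an unadjusted p under 0.05, Pfkp, and the other 3 tools called 0. The Pfkfb3 values of 130.0, 126 and 114 against 261 and 451 in controls gave a log2 change of -1.47 ± 0.29 at steady state (limma adjusted p = 0.0699; edgeR TMM adjusted p = 0.0204). Hk3 changed by -1.33 ± 0.40 at steady state (limma adjusted p = 0.242) and by -0.66 ± 0.44 after LPS (limma adjusted p = 0.797). At steady state the neutrophil sums, 7112 to 7295 in Dicer-deficient samples and 405 and 2415 in controls, did not overlap either. Nor did monocyte sums, 182 to 288 against 45.4 and 126, or erythroid sums, 182 to 291 against 25.4 and 42.3. After LPS, monocyte sums of 283 and 642 against 37.5 and 45.1 did not overlap. Astrocyte sums after LPS, 1215 and 1567 against 476 and 955, did not either. The part of these cell types was not tested. Pfkp was listed at 0 in all 5 Dicer-deficient hippocampal libraries, and at 26.1, 2.54, 8.91 and 0 in the 4 controls, of which 26.1 was 32 reads.

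In newborn mutants Hk3 was 2.70-fold lower than in P0 controls, the 1 call among the 10 genes, where 1.04% of 13064 genes were called higher and 0.444% lower (1.48% either way). It read 133 and 104 in the 2 mutants, against 422, 281 and 275 in P0 controls 1 to 3, and 253 and 260.4 in the 2 P0 controls not used. Both mutants lay under all 5 controls. With so few samples that is common: against controls 1 to 3, 20.6% of 13064 genes lay lower without overlap (37.9% either way). The log2 change was -1.43 ± 0.29 (limma adjusted p = 0.0455), and -1.31 ± 0.24 with all 5 controls (limma adjusted p = 0.00701). The call was lost without P0 control 1, 2 or 3 (limma adjusted p = 0.290, 0.324 and 0.174) and with a pseudocount of 0.1 (limma adjusted p = 0.0756).

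The 2 mutants differed from each other in much of the pathway. Aldoa read 2381 and 858, against 604 to 709 in the 3 controls. Eno1 read 229 and 58.5, against 53.8 to 69.1, and Ldha 1578 and 714, against 659 to 1054. Mutant 1 stood above the controls for each of these, while mutant 2 lay above them for Aldoa and within their range for Eno1 and Ldha. The deposited values of mutant 1, from 992317 reads, summed to 2.58e+06. Those of mutant 2 summed to 1.90e+06 and those of P0 controls 1 to 3 to 1.76e+06 to 1.85e+06. The part of this larger scale in the high values of mutant 1 was not tested. Without mutant 2, when mutant 1 alone is assumed to vary like the controls, 6 of the 10 genes were called, among them Aldoa at 1.82 ± 0.22 (limma adjusted p = 1.62e-05) and Hk2 at -1.85 ± 0.24 (limma adjusted p = 3.64e-05). Without mutant 1, Aldoa changed by 0.35 ± 0.22, Eno1 by -0.07 ± 0.31 and Hk2 by -0.43 ± 0.24, with no call, whereas Hk3 changed by -1.61 ± 0.27 (limma adjusted p = 0.00104). Mutant 1 was also the library with Cx3cr1 at 647.

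Hk3 had a lower estimate in Dicer-deficient microglia in 6 of 6 genotype comparisons, which share no library, and was called in 3 of them. Its values of the 2 genotypes did not overlap in any of the 6, where 6.68% to 22% of the genes tested in a comparison had all Dicer-deficient values under all controls. Of 10226 genes tested in all 6, 9.43% had a lower estimate in each, and 0.46% were called lower in 3 or more. Its fold was 1.58 to 3.18 lower, and its normal-theory interval lay under 0 in 5 of 6 comparisons. Pfkp also had a lower estimate in 6 of 6, on few reads, and Aldoa a higher one in 6 of 6, which 7.24% of genes had; neither was called in any. Pfkfb3 was lower without overlap in 4 comparisons, those without LPS, and its estimate was above 0 in both comparisons after LPS.

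**Figure D4:**
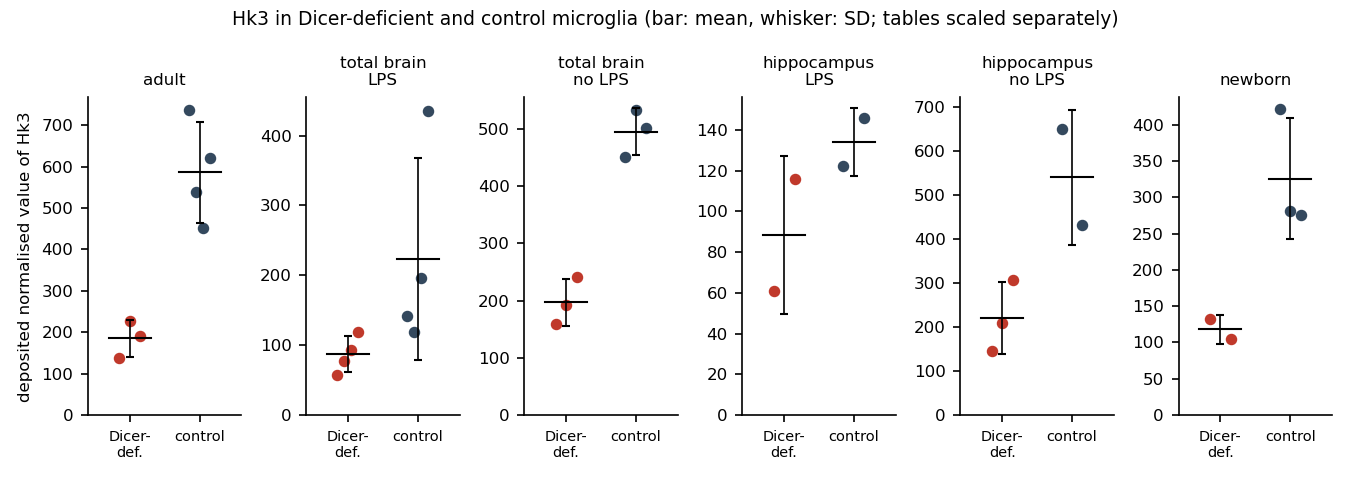
Deposited normalised value of Hk3 (y axis, linear from 0) in every sample of the 6 genotype comparisons, Dicer-deficient left of control in each pair; points are samples, bars group means, whiskers SD. In each pair the Dicer-deficient samples lie under the controls, by 137 to 228 against 451 to 737 in untreated adults and by 119.2 against 119.3 at the closest in total brain after LPS.

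Whether the response to LPS itself depended on genotype was tested as an interaction. In total brain 0 of the 10 genes were called by limma, by edgeR with either scaling or by DESeq2, 2 had an unadjusted p under 0.05, and 0.171% of 13423 genes were called by limma. The 2 were Pfkfb3, with an interaction of 1.71 ± 0.57 on the log2 scale (limma adjusted p = 0.284), and Slc2a1, with 1.54 ± 0.54 (limma adjusted p = 0.312). Without control 33 they were 1.17 ± 0.30 (limma adjusted p = 0.0819) and 1.02 ± 0.28 (limma adjusted p = 0.0990). For Ldha it was -0.02 ± 0.43, a normal-theory interval from -0.87 to 0.82. In hippocampus 0 were called by any of the 4 tests and 1 had an unadjusted p under 0.05, Pfkfb3 at 1.55 ± 0.42 (limma adjusted p = 0.595), where 0.0162% of 12366 genes were called. The Slc2a1 interaction in hippocampus was 1.09 ± 0.56. The steeper rise of Pfkfb3 in Dicer-deficient microglia therefore did not pass the test in either region, and its steady-state values in Dicer-deficient samples were lower while its values after LPS overlapped.

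Across development, control microglia had most Ldha, Aldoa and Slc2a1 at E14, while Pfkfb3 and Hk2 were higher in adults and Hk3 passed the test between no stages. From E14 over P0 to adult, Ldha averaged 2103 ± 381 (n = 4), 866 ± 172 (n = 5) and 343 ± 65.1 (SD, n = 5). Aldoa averaged 1791 ± 267, 643 ± 63.9 and 639 ± 136 over the same stages. Slc2a1 averaged 146 ± 5.93, 74.9 ± 10.0 and 109 ± 18.3. At P0 against E14, 3 of the 10 were called lower and 0 higher, against 18.3% and 11% of 13666 genes (29.3% either way). In adults against P0, 3 were called higher and 2 lower, against 22.3% and 26.8% of 13290 genes (49.1% either way), and in adults against E14 2 were higher and 6 lower, against 23% and 33.3% of 13666 genes (56.3% either way). The members' counts in the first 2 of these comparisons were near those shares.

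Ldha read 2039, 1603, 2489.8 and 2282 at E14, 1034, 1054, 659, 779 and 803 at P0, and 449, 329, 314, 275 and 346 in adults. The 3 stages did not overlap, where 15.5% of all genes lay lower without overlap at P0 than at E14, 17.7% in adults than at P0 and 27.1% in adults than at E14 (25.3%, 32.2% and 45.8% either way). Its log2 change was -1.28 ± 0.17 at P0 against E14 (limma adjusted p = 1.66e-05), -1.33 ± 0.16 in adults against P0 (limma adjusted p = 5.83e-07) and -2.61 ± 0.17 in adults against E14 (limma adjusted p = 7.23e-11), 6.12-fold lower. Aldoa fell by 1.47 on the log2 scale at P0 against E14 (SE 0.15, limma adjusted p = 1.34e-06) and changed by -0.03 ± 0.14 in adults against P0. All P0 samples, at 568 to 709, lay under the 4 E14 samples, at 1404 to 1987, while adult samples, at 496 to 812, overlapped those of P0.

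Slc2a1 read 144, 153, 147 and 139 at E14, 82.9, 70.3, 59.3, 81.4 and 80.6 at P0, and 116, 124, 125, 98.5 and 82.6 in adults. E14 lay above P0 and above adults, as for the 15.5% and 27.1% of genes given above. The lowest adult just overlapped the P0 range. The log2 change was -0.96 ± 0.15 at P0 against E14 (limma adjusted p = 9.2e-05), 0.53 ± 0.14 in adults against P0 (limma adjusted p = 0.00344) and -0.43 ± 0.15 in adults against E14 (limma adjusted p = 0.0183). The last was lost without adult 5 (limma adjusted p = 0.0595), with the replicate number as a block and with edgeR's TMM scaling (-0.31, adjusted p = 0.0738). Pfkfb3 averaged 114 ± 13 at E14, 125 ± 37.6 at P0 and 193 ± 40.6 in adults, with a log2 change of 0.65 ± 0.18 in adults against P0 (limma adjusted p = 0.00520) and 0.74 ± 0.19 against E14 (limma adjusted p = 0.00263). Hk2 averaged 437 ± 15.5, 413 ± 65.6 and 621 ± 95.9 over the 3 stages, 0.59 ± 0.13 higher in adults than at P0 on the log2 scale (limma adjusted p = 0.000651). All 5 adults, at 497 to 741, were above all P0 samples, at 342 to 493. Of 13290 genes tested, 14.5% lay higher without overlap in adults than at P0 (32.2% either way).

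Hk3 averaged 337 ± 73.0 at E14, 298 ± 70.0 at P0 and 324 ± 28.0 in adults, and passed the test in no stage comparison, with an interval for adults against E14 of -0.35 to 0.28 on the log2 scale. Pfkp, on 1 to 38 reads a library, averaged 20.1 ± 5.22, 13.8 ± 4.95 and 2.31 ± 2.62, and was 5.15-fold lower in adults than at P0 (log2 -2.36 ± 0.39, limma adjusted p = 3.69e-05). Pgk1 averaged 24.6 ± 3.18, 9.44 ± 2.95 and 5.46 ± 4.84, with 2 of the 5 adults at 0 and 0.877 and the other 3 at 7.06 to 11.2, and was called lower in adults than at E14 (-2.53 ± 0.55, limma adjusted p = 0.000576). In adults against P0 it was not called with all samples (-1.19 ± 0.52), and was without adult 3, 4 or 5 (limma adjusted p = 0.0152, 0.0308 and 0.0395). The same adults 1 and 2 had Eno1 at 34.5 and 17.5, while adults 3 to 5 had 132, 107 and 117. Eno1 was called lower in adults than at E14 (-0.97 ± 0.41, limma adjusted p = 0.0490), a call lost under 12 of 17 alternatives, with -0.76 ± 0.41 without adult 1 and -0.52 ± 0.30 without adult 2. Gapdh, on 2 to 12 reads a library, was not called between stages, except at P0 against E14 without P0 sample 4 (-1.02 ± 0.35, limma adjusted p = 0.0359).

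The deposited scale put the median of all genes at -0.11 at P0 against E14 and at -0.13 in adults against E14, where edgeR's TMM scaling put it at -0.00337 and -0.00744; the direction of every member called in these comparisons was the same on both scales. With TMM, 2020 genes were called higher and 1928 lower at P0 against E14, where limma on the deposited scale called 1503 and 2496, and in adults against E14 it was 3725 and 4155, where limma called 3145 and 4548. Proliferation markers, at sums of 3361 to 3975 at E14, 1813 to 2907 at P0 and 171 to 255 in adults, moved with stage alongside Ldha, and immediate early genes, at sums of 1084 to 2073 at E14, 8619 to 38614 at P0 and 9823 to 25218 in adults, moved the other way. All 15 immediate early genes were called higher at P0 than at E14, and 6 of 6 erythroid genes tested were too. Their part in the stage differences was not tested.

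**Figure D5:**
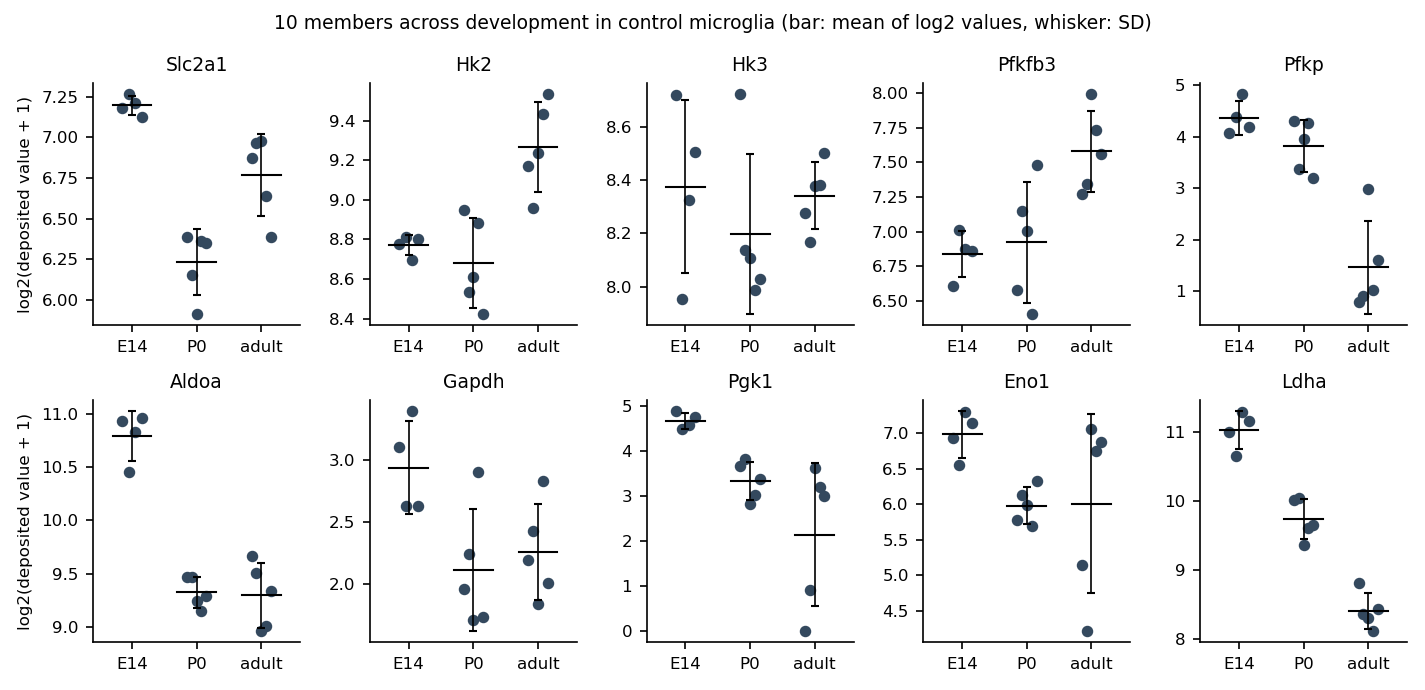
Deposited normalised value, shown as log2(value + 1) on the y axis, of the 10 genes in control microglia at E14, P0 and in adults. Points are samples, bars means, whiskers SD. Ldha steps down from stage to stage without overlap, at deposited values of 1603 to 2489.8 at E14, 659 to 1054 at P0 and 275 to 449 in adults. Hk3 overlaps between the stages.

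The other genes of the pathway, a list of 31 transporters, enzymes and lactate carriers, did not all follow the 10. With LPS in total brain, 4 were called higher and 5 lower of 24 tested in Dicer-deficient microglia, and 6 higher and 3 lower in controls. In controls Adpgk, which phosphorylates glucose with ADP, rose by 1.6 ± 0.31 on the log2 scale (limma adjusted p = 0.00418), Pkm, pyruvate kinase, by 1.16 ± 0.31 (limma adjusted p = 0.0212) and Gpi1, which isomerises glucose-6-phosphate, by 0.93 ± 0.22 (limma adjusted p = 0.00976). Ldhb, the lactate dehydrogenase subunit that favours pyruvate, fell in both genotypes and both regions: by 1.40 and 1.89 in Dicer-deficient microglia of total brain and hippocampus, and by 1.19 and 1.55 in controls (limma adjusted p = 0.00187, 0.000789, 0.0128 and 0.00737). Pgd, of the pentose phosphate branch, rose in the same 4 comparisons, by 0.97 and 1.12 in Dicer-deficient microglia and by 0.99 and 1.16 in controls. In controls of total brain Tkt, a transketolase, rose by 1.18 ± 0.23, and Pdk1, a pyruvate dehydrogenase kinase, fell by 1.20 on the log2 scale (SE 0.27, limma adjusted p = 0.00843). The medians of the list of 31 were 0.25 in Dicer-deficient microglia and -0.06 in controls, beside -0.04 and -0.05 over all genes. Of 19 genes tested from a list of hypoxia-inducible factor and its known targets outside glycolysis, 1 was higher and 4 lower with LPS in Dicer-deficient total brain microglia and 2 higher and 0 lower in controls; Ankrd37 rose in both, by 1.63 and 1.64.

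Between genotypes, Pfkfb4, the close relative of Pfkfb3, was called lower in Dicer-deficient microglia of untreated adults (-1.08 ± 0.19, limma adjusted p = 0.0021), of total brain at steady state (-1.01 ± 0.26, limma adjusted p = 0.0492) and after LPS (-1.41 ± 0.22, limma adjusted p = 0.000949). Eno3, the muscle enolase, was higher, at 80.5 ± 37 in Dicer-deficient adults (n = 3) and 9.85 ± 9.39 in controls (n = 4; limma adjusted p = 0.0125). In total brain at steady state it averaged 338 ± 121 in Dicer-deficient microglia and 95.7 ± 23.0 in controls (n = 3 each; limma adjusted p = 0.0253). With LPS it fell to 46.8 ± 18.7 in Dicer-deficient total brain microglia (n = 4), against that 338 ± 121 at steady state (log2 -2.85 ± 0.37, limma adjusted p = 4.38e-05). In total brain after LPS, the lactate carriers Slc16a7 and Slc16a1 were lower in Dicer-deficient microglia than in controls, by -2.07 ± 0.50 and -1.44 ± 0.40 (limma adjusted p = 0.0156 and 0.0315). Over the list of 31, 3 were called higher and 2 lower of 22 tested in adults, 2 and 1 of 24 in total brain at steady state, 0 and 3 of 23 after LPS, 0 and 0 of 24 in hippocampus in either condition, and 1 and 0 of 24 in newborns, where that 1 was Ldhb (1.59 ± 0.31, limma adjusted p = 0.034).

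In development, 0 of 25 tested genes of the list of 31 were higher and 9 lower at P0 than at E14, and 5 were higher and 9 lower in adults than at E14. The 9 lower at P0 included Slc16a3, the lactate exporter MCT4 (-2.07 ± 0.20, limma adjusted p = 5.31e-07), Pgam1, a phosphoglycerate mutase (-2.04 ± 0.34, limma adjusted p = 0.000186), and Tpi1, triose phosphate isomerase (-1.69 ± 0.17, limma adjusted p = 1.24e-06). In adults Tpi1 was -2.59 ± 0.17 and Pkm -2.49 ± 0.23 against E14, whereas Pfkfb4 was 1.49 ± 0.16, at 362 ± 38.8 in adults (n = 5) and 129 ± 24.3 at E14 (n = 4). Of 19 genes of the hypoxia-inducible factor list, 1 was called higher and 9 lower at P0 than at E14, with Ankrd37 at -2.60 ± 0.36 and P4ha1 at -1.28 ± 0.17, and of 8 pentose phosphate genes 5 were lower.

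To see which genes varied like the members, the 6706 genes with enough signal were compared over the 14 total brain libraries by the root mean square difference of centred log2 values, a description that shares libraries with the tests above. Nearest to Slc2a1 were Socs3, an inhibitor of cytokine signalling, and Tubb6, a tubulin, at 0.256 and 0.291. Nearest to Pfkfb3 were Ccdc86 and Grwd1 at 0.356 and 0.386, and nearest to Ldha were Ftsj3 and Sco2 at 0.146 and 0.166. Hk3 had Dnase2a, a lysosomal nuclease, and Tmem100, both at 0.356. Aldoa had Mdh2, the mitochondrial malate dehydrogenase, at 0.145, and Hk2 had Xrn2 at 0.174. For comparison, the median difference over all genes searched was 1.64 for Slc2a1, 1.64 for Pfkfb3, 0.989 for Ldha and 1.06 for Hk3. The member nearest to Slc2a1 was Pfkfb3, and the reverse, at 0.645, though 35 other genes lay closer to either. Other pairs of members had smaller differences, but this measure is not scaled and is small for genes that vary little. Hk2 and Aldoa differed by 0.439, Gapdh and Hk2 by 0.510 and Ldha and Gapdh by 0.545. Hk2 and Aldoa had SDs of only 0.391 and 0.436 over these libraries, against 1.66 for Slc2a1 and 1.67 for Pfkfb3. By rank among all genes, Slc2a1 and Pfkfb3 were 36 for each other. Aldoa was 1808 for Hk2, Hk2 was 503 for Gapdh and Gapdh was 432 for Ldha.

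Some members share sequence with other genes, and how reads that match several places were counted is not given in the sources used here. In GENCODE transcripts, the share of 50-base windows also present in another gene's transcript was 82.5% for Gapdh (in 226 genes, 215 of them pseudogenes), 72.2% for Eno1 (in 9, with Eno1b first), 68% for Pgk1 (in 5), 16.6% for Ldha and 13.5% for Aldoa. It was 0.61% for Pfkfb3 and 0 for Slc2a1, Hk2, Hk3 and Pfkp. Over the last 500 windows, which oligo dT capture favours, it was 91.4% for Gapdh, 77.6% for Eno1, 16.4% for Pgk1, 3% for Aldoa and 0 for Ldha. Median levels in CPM of the recovered reads were 55.6 for Gapdh in the first table and 3.65, 6.08 and 2.57 in the total brain, hippocampus and development tables, and 110.3 for Eno1 in the first and 15.7, 18.7 and 46.9 in the others. Pgk1 had 44.7 CPM in the first table and 3.02, 1.62 and 4.77 in the others, and Pfkp, which shares no window, 17.9 in the first and 1.73, 0 and 5.43 in the others. These levels came from tables that were processed separately, so the step between tables was not tested, and Gapdh, Eno1 and Pgk1 values may hold or lack reads of their copies. The gene nearest to Eno1 over the total brain libraries was Eno1b, at 0.336.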

How the data were processed

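Microglial RNA captured with oligo dT was sequenced in 46 libraries, and 4 tables with 1 value per gene and library were deposited. Per the submitters' processing notes, bcl2fastq, HISAT 0.1.5, SAMtools, HOMER and DESeq2 were used with the mouse build mm9; their roles, the annotation, the treatment of reads with several matches and the scaling are not given in the sources used here. The deposited values are a normalised signal: in every library 100% of values above 0 were whole reads times 1 factor, within 0.1 read. Totals were 898451 to 1991621 reads in the first table, 2244169 to 4573063 in total brain, 1817611 to 4143142 in hippocampus and 992317 to 3460338 in development. The lower the total, the wider the counting error of members with few reads.

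Groups were taken from the labels. Each table was fitted with limma 3.58.1 (R 4.3.3) with a mean-variance trend on log2(value + 1), the newborn comparison on its own 5 libraries, over genes that reached a value of 1 in a number of libraries no lower than the size of the comparison's smallest group. P-values were adjusted by Benjamini-Hochberg over all genes tested. Alternatives were pseudocounts of 0.1 and 5, no filter, only the groups compared, a replicate block, all 5 P0 controls, each library left out, and edgeR 4.0.16 (TMM, RLE) and DESeq2 1.42.0 on the recovered reads. The scripts were tested on simulated data. Genes named outside the 10 are the called genes of each list with the smallest p, up to 4 per list and comparison; defining markers are named besides, and 1 gene that the rule would name is not reported here. Those named for likeness are the nearest to each member. The 10 genes and all lists were chosen with earlier results of these data known. Promoters and annotation are on GRCm38, a build other than that of the deposited processing, and were used for sequence only.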

Additional observations from a re-analysis of the deposited data

Results flagged for a closer look

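Among 60 pairs of a group of 4 or more samples and a gene, 2 held a sample far from the others, and chance gives about 1 in 20. Hk3 was 422 in P0 control 1, where the other 4 P0 controls read 253 to 281. That sample is 1 of the 3 controls of the newborn comparison. Pfkp was 6.9 in adult 3 of the development table, where the other 4 adults read 0.718 to 2.02, values that rest on few reads.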

How the results depend on the processing

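Of 150 results (10 genes in 15 comparisons) 39 were called; 27 of these were called under every alternative run, 12 were lost under at least 1, and none of the 39 changed direction, while 18 of the 111 others gained a call. Counts of members called moved by more than 1.5 times as follows, and the cause was not tested. In total brain at steady state, 0 genotype calls became 2 with only the groups compared and 1 with DESeq2; after LPS, 2 became 1 with only the groups compared. In hippocampus at steady state, 0 became 1 with edgeR TMM, edgeR RLE and DESeq2. At P0 against E14, 3 became 5 both under edgeR RLE and with only the groups compared. In newborns, 1 became 0 with a pseudocount of 0.1, 3 with all 5 P0 controls and 2 with DESeq2. Smaller moves with DESeq2 were 4 to 6 for LPS in control and 6 to 7 in Dicer-deficient total brain microglia and 3 to 4 in Dicer-deficient hippocampal microglia; P0 against E14 had 4 with TMM and DESeq2, and adults against E14 had 6 with TMM and 7 with RLE and DESeq2, in place of 8. With each library left out in turn, counts ran from 3 to 4 for genotype in untreated adults, 4 to 6 for LPS in Dicer-deficient and 3 to 5 in control total brain microglia, 1 to 2 for genotype in total brain after LPS, 2 to 4 for LPS in Dicer-deficient and 1 to 3 in control hippocampal microglia, 3 to 4 at P0 against E14, 5 to 6 in adults against P0, 7 to 8 in adults against E14 and 0 to 6 in newborns, and were 0 to 0 in the other 5 comparisons. Same-numbered samples did not deviate together in untreated adults (correlations of -0.0112 to 0.00261 over 3 pairs) or in development (-0.204 to 0.0778 over 13). In newborns the 2 same-numbered pairs had 0.0663 and 0.0992, above the 4 other pairs at -0.0992 to 0.0533. With only 2 mutants their deviations mirror each other, so the newborn values cannot decide whether samples were paired. With the replicate number as a block, 3 members were called in untreated adults, 4 at P0 against E14, 5 in adults against P0, 7 in adults against E14 and 1 in newborns. Over all genes the block gave 221 higher and 150 lower in untreated adults, where 348 and 221 were called without it, and 315 and 268 in newborns, where 136 and 58 were. No paired analysis was possible for total brain and hippocampus because their groups share fewer than 2 numbers. Depth limits Pfkp, Gapdh and Pgk1 most: outside the first table they had 0 to 38, 2 to 53 and 0 to 45 reads a library.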
